A study of Mus musculus with 2 samples.

Results

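The 6 microRNA genes described here, Mir99a, Mir99b, Mir100, Mir125a, Mir125b-1 and Mir125b-2, belong to 3 paralogous gene clusters that each also hold a let-7 gene. They were chosen by their symbols in the gene annotation and not by any measured value, though earlier results of these data were known. All 6 were found among the 2202 microRNA genes of the tables. The study holds 1 group: 2 libraries of small RNA from a calf muscle, the gastrocnemius, taken at 36 days of age. Both came from B6CASTF1/J females (the offspring of a cross of C57BL/6 with CAST/EiJ). No treatment is named, and no other tissue, age or strain was measured. The labels number the libraries as biological replicates 1 and 2 of separate females, but both records carry 1 donor identifier. If that stands for 1 mouse, the SDs hold no spread between mice.

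MicroRNAs are short RNAs cut from a hairpin precursor. They lower the output of messenger RNAs that pair with their seed, the bases 2 to 8 counted from the 5′ end. miR-125 is the mammalian counterpart of lin-4, the founding microRNA of the worm, where lin-4 and let-7 time the steps of larval development. The linkage of a miR-99/100 gene, a let-7 gene and a miR-125 gene is old, and vertebrates carry several copies of the cluster. In other studies miR-99 and miR-100 are known for lowering the growth kinase mTOR and the receptor Igf1r, and miR-125b for delaying the differentiation of myoblasts through Igf2.

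The mature sequences are shown because they fix both the family of each gene and which reads can be told apart. Mature sequences for all 6 genes were found in RefSeq (GRCm38.p6), and capitals mark the seed. The 5p arms of the first 3 genes share the seed ACCCGUA.
miR-99a-5p: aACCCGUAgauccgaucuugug
miR-100-5p: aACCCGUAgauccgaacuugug
miR-99b-5p: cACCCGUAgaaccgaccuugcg
The 5p arms of the other 3 share the seed CCCUGAG. The bottom line is made by both Mir125b-1 and Mir125b-2.
miR-125a-5p: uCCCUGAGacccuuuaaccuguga
miR-125b-5p: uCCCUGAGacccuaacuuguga

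With positions counted from 1 at the 5′ end, miR-99a-5p and miR-100-5p differed at 1 of 22 bases (U16A, miR-99a first). miR-99a-5p and miR-99b-5p differed at 4 bases (A1C, U11A, U16C and U21C). miR-125a-5p and miR-125b-5p were the same over their first 13 bases. miR-125b-5p lay in 2 annotated hairpins, those of Mir125b-1 and Mir125b-2, and its letters alone cannot say which gene a read came from. The 3p arms of these 2 genes do tell them apart, with 5 differences over 22 bases.
miR-125b-1-3p: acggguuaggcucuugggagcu
miR-125b-2-3p: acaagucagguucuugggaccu
Of the let-7 genes of the clusters, Mirlet7c-1 and Mirlet7a-2 also held a mature sequence found in 2 annotated hairpins. The mature sequences of Mir99a, Mir100, Mir99b, Mirlet7e and Mir125a each lay in 1. The rest of the genome was not searched.

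All genes of the clusters lie on the plus strand of mm10. On chromosome 16, Mir99a (77598936 to 77599000), Mirlet7c-1 (77599657 to 77599750) and Mir125b-2 (77646273 to 77646343) lie in introns of Mir99ahg, a long non-coding host gene. The first 2 also lie within Gm11146 on the other strand. Mir125b-2 also overlaps an exon of C130023A14Rik, a transcript model of the annotation class TEC. On chromosome 9, Mir100 (41531425 to 41531504), Mirlet7a-2 (41536716 to 41536811) and Mir125b-1 (41581926 to 41582002) lie in introns of the long non-coding genes 3110039I08Rik and Gm49317. Mir125b-1 also overlaps an exon of Gm28119, a transcript within those introns, and Mir100 overlaps an exon of Gm48742 on the other strand. On chromosome 17, Mir99b (17830188 to 17830257), Mirlet7e (17830352 to 17830444) and Mir125a (17830812 to 17830879) overlap the gene of the sperm protein Spaca6. Mir99b and Mirlet7e are intronic there, and Mir125a overlaps an exon of at least 1 Spaca6 transcript. From the first base of the first gene to the last base of the third, the cluster on chromosome 17 spans 692 bases, that on chromosome 16 spans 47408 and that on chromosome 9 spans 50578.

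The reads assigned to microRNA genes numbered 1593787 (replicate 1) and 2078101 (replicate 2). Of the 2202 genes, 273 had at least 10 reads in both libraries and are called detected, the 6 members among them. Reads with more than 1 matching place were given to no gene. They outnumbered the gene-assigned reads by factors of 4.51 and 5.25 in the respective libraries. Levels are given as counts per 1000000 gene-assigned reads (CPM). In whole muscle, fewer cells of a type and less RNA per cell cannot be told apart. Adapters also join to different sequences with different efficiency, so levels of different microRNAs are compared only as counted. Of 9 listed skeletal muscle genes, 7 were detected and none was at 0 in both libraries. The muscle-specific Mir206 had 32871 and 139295 reads in replicates 1 and 2, while Mir1a-1 had 32 and 24 and Mir133a-2 had 8 and 12. Mir1a-1 and Mir1a-2 are copies that give the same mature microRNA, and so are Mir133a-1 and Mir133a-2.

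The 6 members together held 4.47% of gene-assigned reads in replicate 1 (exact binomial 95% interval 4.44 to 4.51) and 3.71% in replicate 2 (3.68 to 3.73), a mean of 4.09% ± 0.543 (SD, n = 2). These intervals cover counting error only, since PCR copies cannot be recognised. The reads came almost entirely from the miR-99/100 genes, with 69218 and 73651 reads, against 2078 and 3360 for the miR-125 genes. The miR-99/100 genes thus had 33.3 times the reads of the miR-125 genes in replicate 1 and 21.9 times in replicate 2. The ratio was 1.52-fold lower in replicate 2 (exact conditional 95% interval 1.44 to 1.61). It leaves out reads of miR-125b-5p, which match 2 genes.

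Mir99a had 50925 reads in replicate 1 and 47078 in replicate 2, or 31952 and 22654 CPM. It was the highest member and, by gene-assigned reads only, ranked 9 and 11 among all genes of the respective libraries. Mir100 had 15066 and 20417 reads, or 9453 and 9825 CPM, and ranked 21 and 20. Mir99b had 3227 and 6156 reads, or 2025 and 2962 CPM, and ranked 45 and 37. The order of Mir99a over Mir100 over Mir99b held in both libraries, and the ranges of neighbours did not overlap. Mir99a had 3.38 times the level of Mir100 in replicate 1 and 2.31 times in replicate 2.

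Among the miR-125 genes, Mir125a had 1595 and 2815 reads, or 1001 and 1355 CPM. Mir125b-1 had 309 and 346 reads, or 194 and 166 CPM. Mir125b-2 had 174 and 199 reads, or 109 and 95.8 CPM. The ranges of these genes did not overlap either, and Mir125b-1 exceeded Mir125b-2 by nearly the same factor in both libraries, 1.78 and 1.74. Counts at the Mir125b genes are reads placed at 1 locus and are no measure of miR-125b-5p itself.

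**Figure D1:**
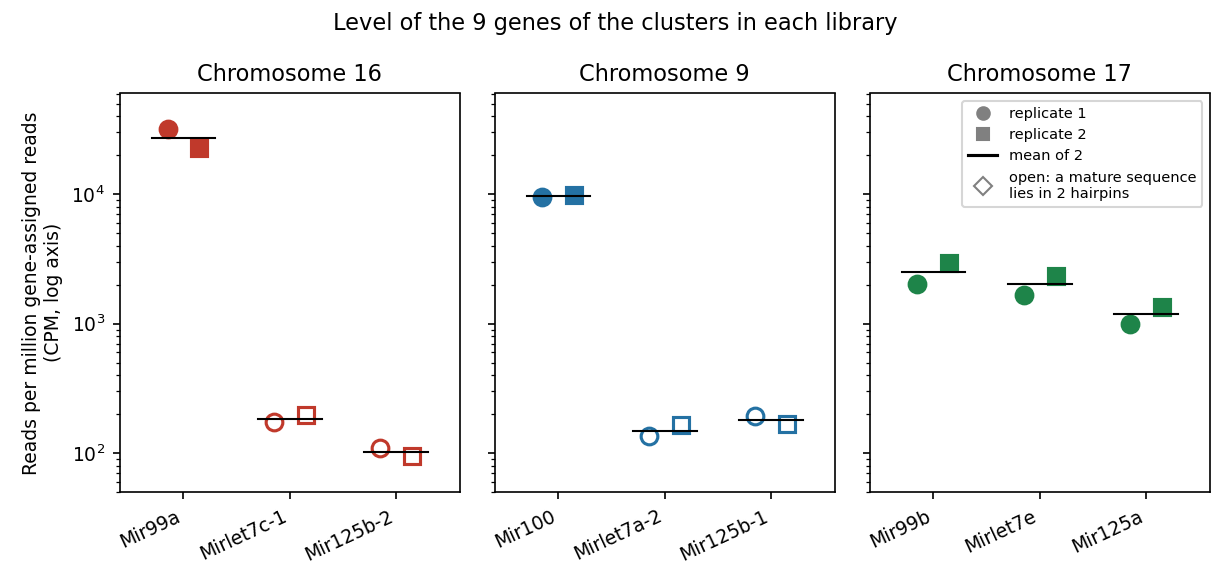
CPM on a log axis of the 3 genes of each cluster, with a circle for replicate 1, a square for replicate 2 and a line at their mean; open symbols mark genes with a mature sequence found in 2 hairpins. The 5 filled genes sit between 1001 and 31952 CPM and the 4 open genes between 95.8 and 196 CPM.

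The plot of levels by cluster shows the genes of the clusters in separate ranges by the number of hairpins that hold their mature sequences. The 5 genes whose mature sequences each lie in 1 hairpin had between 1595 and 50925 reads. The 4 genes with a mature sequence in 2 hairpins had between 174 and 408. The tables do not separate the arms of a hairpin, so which arm gave these reads is not known. Across the series, 207 of 902 genes with every matched mature sequence in 1 hairpin were detected (22.9%), and 40 of 348 genes with a mature sequence in several hairpins (11.5%). Detected genes of the former kind had a median of 175 CPM and those of the latter 139 CPM. The former kind held 67.0% and 75.7% of gene-assigned reads in replicates 1 and 2, with a highest mean level of 100392 CPM. The latter held 1.47% and 1.54%, with a highest of 5481 CPM. The latter kind takes in genes such as Gm22066, with a mature sequence in 86 hairpins. It is thus no like background for genes with a mature sequence in 2 hairpins. For the remaining 952 genes no mature sequence was matched, and 26 of them were detected. That class held 31.6% and 22.8% of gene-assigned reads in replicates 1 and 2, with a highest mean level of 159075 CPM.

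Within each cluster the miR-99/100 gene had the most gene-assigned reads in both libraries. Mirlet7c-1, Mirlet7a-2, Mir125b-1 and Mir125b-2 each hold a mature sequence found in 2 hairpins. Reads that match both were given to no gene, so the ratios on chromosomes 16 and 9 leave them out. On chromosome 16, Mir99a had 185 times the reads of Mirlet7c-1 in replicate 1 and 115 times in replicate 2. It had 293 and 237 times the reads of Mir125b-2. On chromosome 9, Mir100 had 70.1 and 59.9 times the reads of Mirlet7a-2, and 48.8 and 59.0 times those of Mir125b-1. The let-7 gene and the miR-125 gene of that cluster were close, with 215 against 309 reads in replicate 1 and 341 against 346 in replicate 2. The short cluster on chromosome 17 was far more even. Mir99b had 1.21 and 1.26 times the reads of Mirlet7e, and Mirlet7e had 1.67 and 1.74 times those of Mir125a. On the log2 scale with 0.5 added to each count, Mir99b exceeded Mir125a by 1.07 ± 0.08, Mir100 exceeded Mir125b-1 by 5.74 ± 0.19 and Mir99a exceeded Mir125b-2 by 8.04 ± 0.22 (SD, n = 2). Mir125a is the miR-125 gene whose mature sequences lie in 1 hairpin each, so the evenness and the number of loci cannot be told apart over 3 clusters.

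The 4 members with the most reads differed between the libraries beyond counting noise. A two-sided exact binomial test on TMM-scaled counts, adjusted over the 273 detected genes (Benjamini-Hochberg), called 3 members higher in replicate 2 and 1 lower, while 2 did not pass. The same test called 63.0% of all detected genes, 33.3% higher and 29.7% lower, so 4 called of 6 is close to that background. It compares 2 libraries and takes no account of spread between animals. edgeR's exact test, run with the dispersion that these libraries share, called 1.47% of the detected genes, and 6.96% had an unadjusted p under 0.05. Of the members 0 passed it and 0 had an unadjusted p under 0.05. Its dispersion was estimated from the same 2 libraries whose difference it tests, so the differences between them enter their own error term, and a missed call says nothing of stability.

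Mir99b had the largest change among the members and was higher in replicate 2, by 1.53-fold (1.47 to 1.60, an exact 95% interval for counting error, adjusted p = 4.94e-88 by the exact binomial test). Mir125a was 1.42-fold higher (1.33 to 1.51, adjusted p = 9.09e-29 by the exact binomial test). Mir100 was 1.09-fold higher (1.07 to 1.11, adjusted p = 7.97e-15 by the exact binomial test), a small difference beside the other calls, and its log2 ratio of 0.12 became 0.06 with scaling by total reads and 0.04 with no read minimum. Mir99a was the member that was lower, by 1.35-fold (1.33 to 1.36). Mir125b-1 had a fold of 0.900 (0.769 to 1.05) and Mir125b-2 a fold of 0.919 (0.746 to 1.13). Both of these intervals include 1. The edgeR unadjusted p was between 0.377 (Mir99b) and 0.870 (Mir125b-2) for the 6 members.

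**Figure D2:**
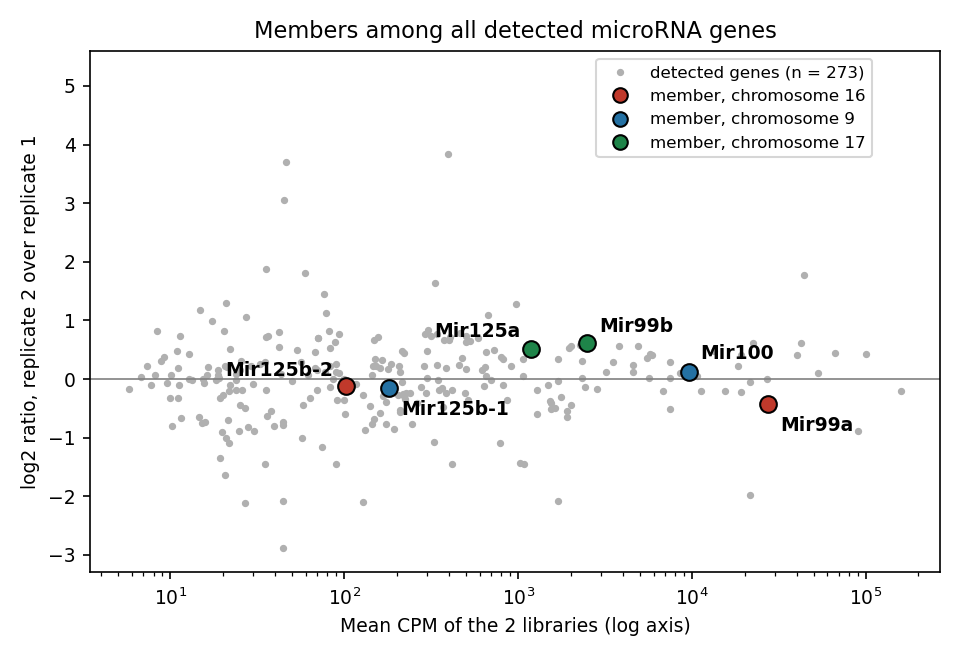
Each point is 1 of the 273 detected genes, with mean CPM on a log axis against the log2 ratio of replicate 2 over replicate 1, and the 6 members are drawn large and coloured by chromosome. The members lie between -0.43 and 0.62, within the grey cloud.

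On the log2 scale the members ranged from -0.43 (Mir99a) to 0.62 (Mir99b), as the plot of all detected genes shows. Their median absolute difference was 0.29, against 0.36 over all detected genes. Of the detected genes, 81 (29.7%) differed by more than Mir99b did. The median signed ratio was 0.00 for the members and 0.02 for all detected genes.

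On chromosome 17 the genes of the cluster were higher in replicate 2 by like amounts. Mirlet7e was 1.47-fold higher (1.40 to 1.54), between its neighbours Mir99b and Mir125a. The ratio of Mir99b to Mirlet7e changed by a factor of 1.04 from replicate 1 to replicate 2 (0.976 to 1.11, the same kind of interval as above), and that of Mirlet7e to Mir125a by 1.04 (0.961 to 1.12). Both include 1. The ratio of Mir99b to Mir125a changed by 1.08 (1.00 to 1.17), with the lower end just above 1.

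On chromosome 16 the genes of the cluster did not move by like amounts. Mir99a was lower in replicate 2, while Mirlet7c-1, 656 bases downstream, was 1.19-fold higher (1.02 to 1.39, adjusted p = 0.0412 by the exact binomial test). That call ended with scaling by total reads (adjusted p = 0.151, exact binomial test) and under 4 other alternatives, with adjusted p between 0.0533 and 1 over these 5. It was kept without regard to strand (adjusted p = 0.0498, exact binomial test). The ratio of Mir99a to Mirlet7c-1 was 1.60-fold lower in replicate 2 (1.37 to 1.88) and that of Mir99a to Mir125b-2 was 1.24-fold lower (1.00 to 1.53). On chromosome 9, Mirlet7a-2 was 1.27-fold higher (1.07 to 1.52, adjusted p = 0.0105 by the exact binomial test), a call that ended with no read minimum (0.0963) and with edgeR's exact test (adjusted p = 1). The ratio of Mir100 to Mirlet7a-2 changed by a factor of 0.854 (0.716 to 1.02) and that of Mir100 to Mir125b-1 by 1.21 (1.03 to 1.42). The ratio of Mirlet7a-2 to Mir125b-1 changed by 1.42 (1.12 to 1.79) and that of Mirlet7c-1 to Mir125b-2 by 1.30 (0.997 to 1.69). For Mirlet7c-1, Mirlet7a-2 and the Mir125b genes these values come from uniquely placed reads and say nothing of reads that fit both copies.

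**Figure D3:**
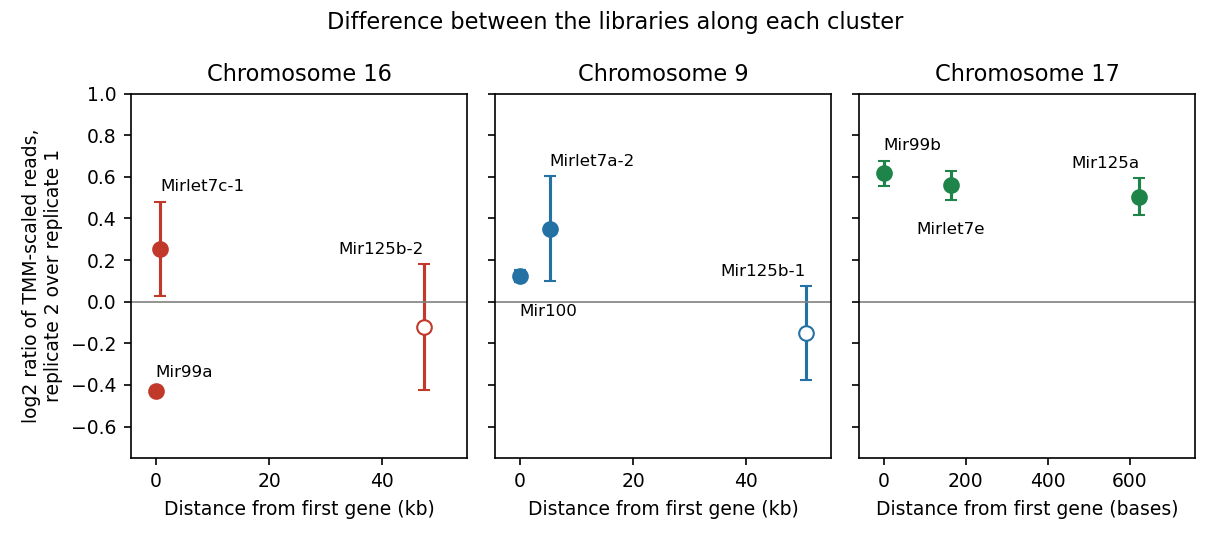
The log2 ratio of TMM-scaled reads, replicate 2 over replicate 1, against the distance from the start of the first gene of each cluster (kb, or bases for chromosome 17), with bars for the 95% counting interval and open circles for genes that did not pass the test. The 3 genes on chromosome 17 lie between 0.50 and 0.62, while those on chromosome 16 lie between -0.43 and 0.25.

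The make-up of the gene-assigned reads of each seed group also differed between the libraries. For the miR-125 seed these reads leave out those that match both Mir125b genes. Of the reads of the 3 genes with the seed ACCCGUA, Mir99a gave 73.6% in replicate 1 (exact binomial 95% interval 73.2 to 73.9) and 63.9% in replicate 2 (63.6 to 64.3). Mir100 gave 21.8% (21.5 to 22.1) and 27.7% (27.4 to 28.0). Mir99b gave 4.66% (4.51 to 4.82) and 8.36% (8.16 to 8.56). Mir99a thus stayed the main source in both libraries, with 68.7% ± 6.82 (SD, n = 2), and the shares of the other 2 genes were larger in replicate 2.

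**Figure D4:**
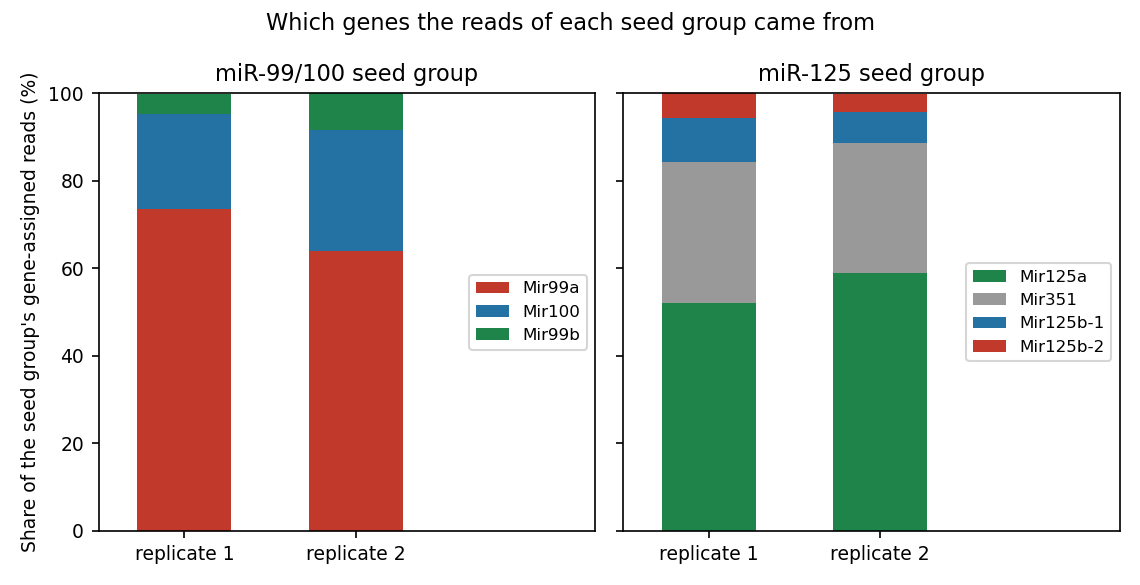
Stacked bars from 0 to 100% give the share of each gene in the gene-assigned reads of its seed group, per library; genes with no read are left out. Mir99a is the largest part of the left panel in both libraries (73.6% and 63.9%), and Mir125a of the right panel (52.1% and 59.0%). The right panel leaves out reads that match both Mir125b genes.

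Genes outside the clusters that carry the seed CCCUGAG in RefSeq are Mir351, Mir6367 and Mir6394. Mir351, an X-linked gene outside the clusters, had 986 and 1408 reads, or 619 and 678 CPM, and was 1.15-fold higher in replicate 2 (1.06 to 1.25), a call that ended with no read minimum (adjusted p = 0.131, exact binomial test) and with edgeR's exact test (adjusted p = 1). By gene-assigned reads, which leave out reads that match both Mir125b genes, it lay below Mir125a and above both of those in each library. It is shown because it has the seed of miR-125 on a different remainder.
miR-351-5p: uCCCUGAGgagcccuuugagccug
Mir6367 and Mir6394 had 0 reads in both libraries, which allows up to 1.88 CPM in replicate 1 and 1.44 CPM in replicate 2. Of the counted reads of that seed group, Mir125a gave 52.1% (50.3 to 53.8) in replicate 1 and 59.0% (57.6 to 60.4) in replicate 2. Mir351 gave 32.2% (30.5 to 33.9) and 29.5% (28.2 to 30.8). These shares leave out miR-125b-5p reads that match both Mir125b genes, so the main source of the seed is not known from them.

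Mir10a and Mir10b, Hox-cluster genes of the wider miR-10 family, have a seed that differs from that of miR-99 and miR-100, which is why they are shown.
miR-10a-5p: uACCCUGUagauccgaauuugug
miR-10b-5p: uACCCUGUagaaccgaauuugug
Mir10b had 33357 and 35493 reads, or 20929 and 17079 CPM, between Mir99a and Mir100 in both libraries. Mir10a had 9159 and 11586 reads, or 5747 and 5575 CPM, between Mir100 and Mir99b. Mir10b was 1.17-fold lower in replicate 2 (1.15 to 1.19), and Mir10a, with a fold of 1.02 (0.989 to 1.04), did not pass. The log2 ratio of Mir10a turned negative with scaling by total reads (-0.0437, adjusted p = 0.0489, exact binomial test). Of the 6 genes formed by the cluster let-7 genes, Mir10a, Mir10b and Mir351, 4 were higher, 1 was lower and 1 did not pass, against 63.0% called among all detected genes. edgeR's exact test called 0 of these 6 (adjusted p = 1 for each, unadjusted p between 0.423 and 0.973).

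Several cell type markers differed between the same libraries. Both listed smooth muscle genes, Mir143 and Mir145a, were lower in replicate 2. Their summed level was 12.0% of reads in replicate 1 and 6.25% in replicate 2. Both erythroid genes, Mir451a and Mir144, were lower, with 3.73% and 0.898%. Of the 9 skeletal muscle genes 4 were higher, 3 did not pass and 2 were under the read minimum. Their summed 2.21% and 6.98% came mostly from Mir206. Reads that match both Mir1a genes, or both Mir133a genes, were given to no gene and are not in this sum. Mir499, a microRNA of a slow myosin gene, had 86 and 1527 reads and was 14.3-fold higher (11.5 to 17.9). Mir208b, another of that kind, was under the minimum in replicate 1, with 5 reads against 889. Mir499 was the listed marker that passed edgeR's exact test (adjusted p = 0.000309), and the other marker calls ended with it. The exact binomial calls of the markers stand against 63.0% called among all detected genes. Of 3 endothelial genes Mir126a was higher and 2 did not pass, with 8.86% and 11.3%. Of 4 leukocyte genes 2 were higher and 2 lower, with 0.142% and 0.209%. Of 8 neural genes Mir128-1 and Mir128-2 were higher and 6 were under the minimum, with 0.0392% and 0.0689%. The 3 Mir124a genes, Mir9-1 and Mir9-2 were at 0 in both libraries. Marker counts hold only reads with 1 matching place, so a 0 does not show that a mature microRNA was absent. The part of these cell types in the differences of the members was not tested.

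By the distance between pairs of log2(CPM + 1) values over the 2 libraries, the genes nearest to Mir99a were Mir22 (0.30) and Mir30a (0.53). Mir322 (0.22) and Mir335 (0.26) were nearest to Mir100, and Mir382 (0.19) and Mir541 (0.25) to Mir99b. Nearest to Mir125a were Mir486 (0.22) and Mir299a (0.36). For Mir125b-1 they were Mir122 (0.05) and Mir300 (0.07), and for Mir125b-2 Mir204 (0.08) and Mir1843b (0.10). With 2 libraries such likeness mostly means a like level, and Mir99a lay farther from its neighbours than Mir100 or the Mir125b genes did.

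No read lay on the opposite strand of any member, and the counts of all 6 were the same with and without regard to strand. Mirlet7e was the exception among the clusters. A microRNA gene, Gm25927, overlaps it on the other strand, and its 2670 and 4895 reads became 0 and 0 when strand was disregarded.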

How the data were processed

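The 2 small RNA libraries from the gastrocnemius were analysed as 1 group. The authors deposited raw read counts for each microRNA gene (mm10, annotation M21), as their read-me text says. Neither the aligner nor the counter is named (not given in the sources used here). The tables hold 4 summary rows and 3 columns with no header, read from layout and values as counts without regard to strand, on the strand of the gene (used here) and on the opposite strand. Reads matching several places, 75.4% and 77.6% of all reads in replicates 1 and 2, stand in a summary row. Summary rows entered neither library sizes nor tests.

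All 2202 identifiers were matched to GENCODE M21. Libraries were scaled with TMM (edgeR 4.0.16, R 4.3.3) over genes with at least 10 reads in both. A two-sided exact binomial test per gene was adjusted over these 273 genes (Benjamini-Hochberg, 0.05). A quasi-likelihood fit needs residual degrees of freedom, which 1 group of 2 libraries set against each other lacks. Pairs were compared as log2 ratios with 0.5 added. Mature sequences came from RefSeq and were searched in the annotated hairpins. Tested on simulated counts for these libraries, which held counting noise only, the binomial procedure recovered 76.7% of 43 genes changed 1.5-fold and 92.2% of 51 changed 3-fold, and called 0% of 280 with no gene changed.

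The members, lists and named genes (the members, their cluster neighbours, kin by seed or family, cell type markers and the 2 nearest genes of each member) were chosen with earlier results of these data known. Alternatives were other scalings, including DESeq2 1.42.0 size factors, other read minimums, denominators and pseudocounts, counts without strand, leaving out each replicate, and edgeR's exact test. Scripts ran in Python 3.11.15 with scipy 1.17.1, numpy 2.4.6, matplotlib 3.10.9 and pandas 2.3.3.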

Additional observations from a re-analysis of the deposited data

Results flagged for a closer look

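Reads that match several places, 7195252 in replicate 1 and 10919725 in replicate 2, stand outside the gene counts. Both numbers are far above 3, the upper limit for a count of 0, which says nothing of what the reads are. How many of them are reads of miR-125b-5p was not measured.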

How the results depend on the processing

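The share of reads held by the members was 4.09%. It was 5.89% without regard to strand, where the members' counts were unchanged and the total was smaller, 0.702% with reads that match several places added to the total, and 4.87% without the most abundant gene. The counts of 3 members higher and 1 lower were the same with scaling by total reads or by median of ratios, with no read minimum, with at least 50 reads in both and without regard to strand. With edgeR's exact test, run with the dispersion that the libraries share, 0 were higher and 0 lower. Mirlet7e exceeded Mir125a by 0.77 on the log2 scale, which turned to -12.05 without regard to strand because the Mirlet7e count became 0. Alternatives for the let-7 neighbours, Mir10a, Mir10b and Mir351 were chosen after seeing the data. The log2 ratio of Mir10a, 0.02, turned to -0.0437 with scaling by total reads, -0.0560 with no read minimum and -0.0022 with at least 50 reads in both. The log2 ratio of miR-99/100 over miR-125 genes was 4.76, with 5.06 in replicate 1 and 4.45 in replicate 2 alone. Median-of-ratios and total-read scaling moved the median of all genes by under 0.1 (log2). Leaving out a replicate gives the value of the other library and no test between libraries. No paired analysis was possible because there is 1 group.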
